A study of Mus musculus with 2 samples.

Results

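The interferon-stimulated genes described here are 34 mouse genes chosen by symbol, of which 33 were found among the 32285 genes of the deposited tables. Mx1 was not analysed here. Their RNA was counted as unique molecular identifiers (UMIs, 1 tag per captured transcript) by 10x Chromium 3' v3 single-cell sequencing of mouse femoral bone marrow together with cells adhering to an implant. Both groups were osteoporotic mice with a fracture, and both carried a magnesium nail in the marrow canal. The Mg-TAGelMA group had nails labelled Mg-TAGelMA, where GelMA is gelatin methacryloyl, a hydrogel, and TA is not spelled out in the labels. The Mg group had plain magnesium (Mg) nails. The number, sex and age of the mice, how osteoporosis was induced, the time after surgery and any pooling are not given in the sources used here, and marrow and implant-adherent cells cannot be told apart within a library. Each group has 1 library, so there is no replicate and no test between the nails. Every interval below is an exact 95% interval that covers counting error only.

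The Mg-TAGelMA library held 7591 barcodes and 79890998 UMIs, and the Mg library 9466 barcodes and 58261391 UMIs, with 21 barcode sequences present in both. After filtering, 7227 cells (median 6742 UMIs) were kept in the Mg-TAGelMA library and 8126 cells (median 3805.5 UMIs) in the Mg library. The libraries were counted with different Cell Ranger releases, 7.0.1 for Mg-TAGelMA and 5.0.0 for Mg, and Gm42418, a gene that overlaps ribosomal RNA, took 0.113% of UMIs in Mg-TAGelMA and 6.94% in Mg. These differences cannot be told apart from the nails. When cells of both libraries were clustered together, most clusters came almost wholly from 1 library, so cell classes were instead gated on fixed marker genes, none of them an interferon-stimulated gene. In each of the 14 classes shown, in both libraries, at least 1 of the class's own markers was among its 10 leading genes. Mature neutrophil-like cells had 1 in each library. Gating on those markers favours this outcome, so it is no independent check of the names. Classes are named "-like" because no protein measurement stands behind them.

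Type I interferons bind a receptor whose kinases activate STAT2. With IRF9 it acts in ISGF3, a complex that binds a promoter element built from repeated GAAA blocks and switches on genes such as Isg15, the Ifit and Oas families and Rsad2. Their products tag proteins, bind viral RNA, make the messenger that activates RNase L, or block viruses at membranes. Some of these genes are also expressed without interferon as blood cells mature, the Ifitm and Slfn families in myeloid cells among them.

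The promoters of the members shown next carry, or lack, an exact match to a motif of repeated GAAA blocks. They belong to genes whose levels are compared below. Of the 33 members, 28 had a promoter window in the RefSeq table for GRCm38.p6, which spans 250 bases before to 50 bases after the start site. The motif GAAANNGAAA or its reverse complement TTTCNNTTTC, with overlapping matches counted separately, was found in the windows of 13 members, 46.4% of those with a window, against 3.99% of the 27025 genes with a window. Bst2, Gbp2, Gbp7, Ifit1, Ifit3, Ifitm2, Ifitm3, Isg15, Oas1a, Oas3, Phf11b, Rsad2 and Stat2 had it. A match describes letters in this window and is not evidence of a bound site. A missing match does not show that the element is absent, since looser or more distant forms were not searched. The 160 bases directly before the RefSeq start site are printed 5′ to 3′ on the strand of the gene, with the motif in capitals:
Isg15, chr4:156200819-156200978, minus strand: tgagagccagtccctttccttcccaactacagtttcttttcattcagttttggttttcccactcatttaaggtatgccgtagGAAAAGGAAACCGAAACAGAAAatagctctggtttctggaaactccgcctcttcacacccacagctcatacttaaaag
Ifit1, chr19:34640729-34640888, plus strand: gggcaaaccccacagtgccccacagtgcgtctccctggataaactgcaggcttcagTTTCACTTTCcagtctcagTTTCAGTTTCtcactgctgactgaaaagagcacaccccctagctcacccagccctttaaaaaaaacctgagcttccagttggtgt
Ifit3, chr19:34583369-34583528, plus strand: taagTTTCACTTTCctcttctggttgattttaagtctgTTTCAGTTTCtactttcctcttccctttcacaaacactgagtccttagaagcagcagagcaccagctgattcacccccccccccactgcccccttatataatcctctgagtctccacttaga
Rsad2, chr12:26456453-26456612, minus strand: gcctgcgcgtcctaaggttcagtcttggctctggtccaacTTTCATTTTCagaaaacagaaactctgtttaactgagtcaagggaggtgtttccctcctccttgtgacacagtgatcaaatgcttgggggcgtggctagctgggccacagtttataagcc
Oas3, chr5:120777660-120777819, minus strand: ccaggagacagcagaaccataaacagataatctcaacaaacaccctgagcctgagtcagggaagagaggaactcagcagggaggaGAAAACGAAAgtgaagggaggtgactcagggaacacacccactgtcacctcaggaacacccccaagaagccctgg
Ifitm2, chr7:140955962-140956121, minus strand: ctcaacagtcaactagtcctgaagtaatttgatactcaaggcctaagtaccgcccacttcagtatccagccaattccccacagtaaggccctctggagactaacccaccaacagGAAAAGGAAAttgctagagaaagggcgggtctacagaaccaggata
Slfn4, chr11:83175026-83175185, plus strand: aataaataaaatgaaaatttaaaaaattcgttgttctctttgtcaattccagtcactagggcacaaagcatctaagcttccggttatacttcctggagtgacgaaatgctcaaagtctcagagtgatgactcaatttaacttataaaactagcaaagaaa
Isg15 carried 3 overlapping motifs, Ifit1 and Ifit3 carried 2 each, and Rsad2, Oas3 and Ifitm2 carried 1 each. The Slfn4 window held no match, nor did those of Slfn1, Slfn2, Ifitm1, Ifitm6, Irf7, Irf9, Cmpk2, Oasl1, Oasl2, Ifit2, Ifi44, Ifi47, Ifi209 and Xaf1.

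Several members are neighbours in the genome. Ifitm1, Ifitm2, Ifitm3 and Ifitm6 lie on chromosome 7 between 140954837 and 141017924 (GRCm38), Slfn1, Slfn2 and Slfn4 on chromosome 11 between 83065112 and 83190216, and Ifit1, Ifit2 and Ifit3 on chromosome 19 between 34550694 and 34650009. Such paralogs share sequence, so reads from near-identical stretches may be assigned to a sister gene or dropped, and values within a family are uncertain to that extent.

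The members did not share 1 pattern across marrow cells. Levels below are CPM, the UMIs of a gene scaled to all UMIs of the class; they come from tags at the 3′ end and are not scaled by gene length, so a gene is compared with itself across classes. In 12 of the 33 members, the class with the highest level was the same in both libraries. It was the mature neutrophil-like class for Oas3, Cmpk2, Slfn1 and Slfn4, the classical monocyte-like class for Ifitm3, Zbp1 and Ifi204, and the plasmacytoid dendritic-like class for Bst2 and Stat2. Ifitm6 was highest in immature neutrophil-like cells, Gbp2 in macrophage-like cells and Phf11b in conventional dendritic-like cells. For Zbp1, Ifi204 and Phf11b, the interval of the highest class overlapped that of the second class in both libraries. The same held for Cmpk2 in Mg-TAGelMA, and for Ifitm3 and Stat2 in Mg. The Gbp2 rank in Mg-TAGelMA rests on 1 cell, without which its macrophage-like level was 12.1 CPM, below the 29.9 CPM of nonclassical monocyte-like cells.

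**Figure D1:**
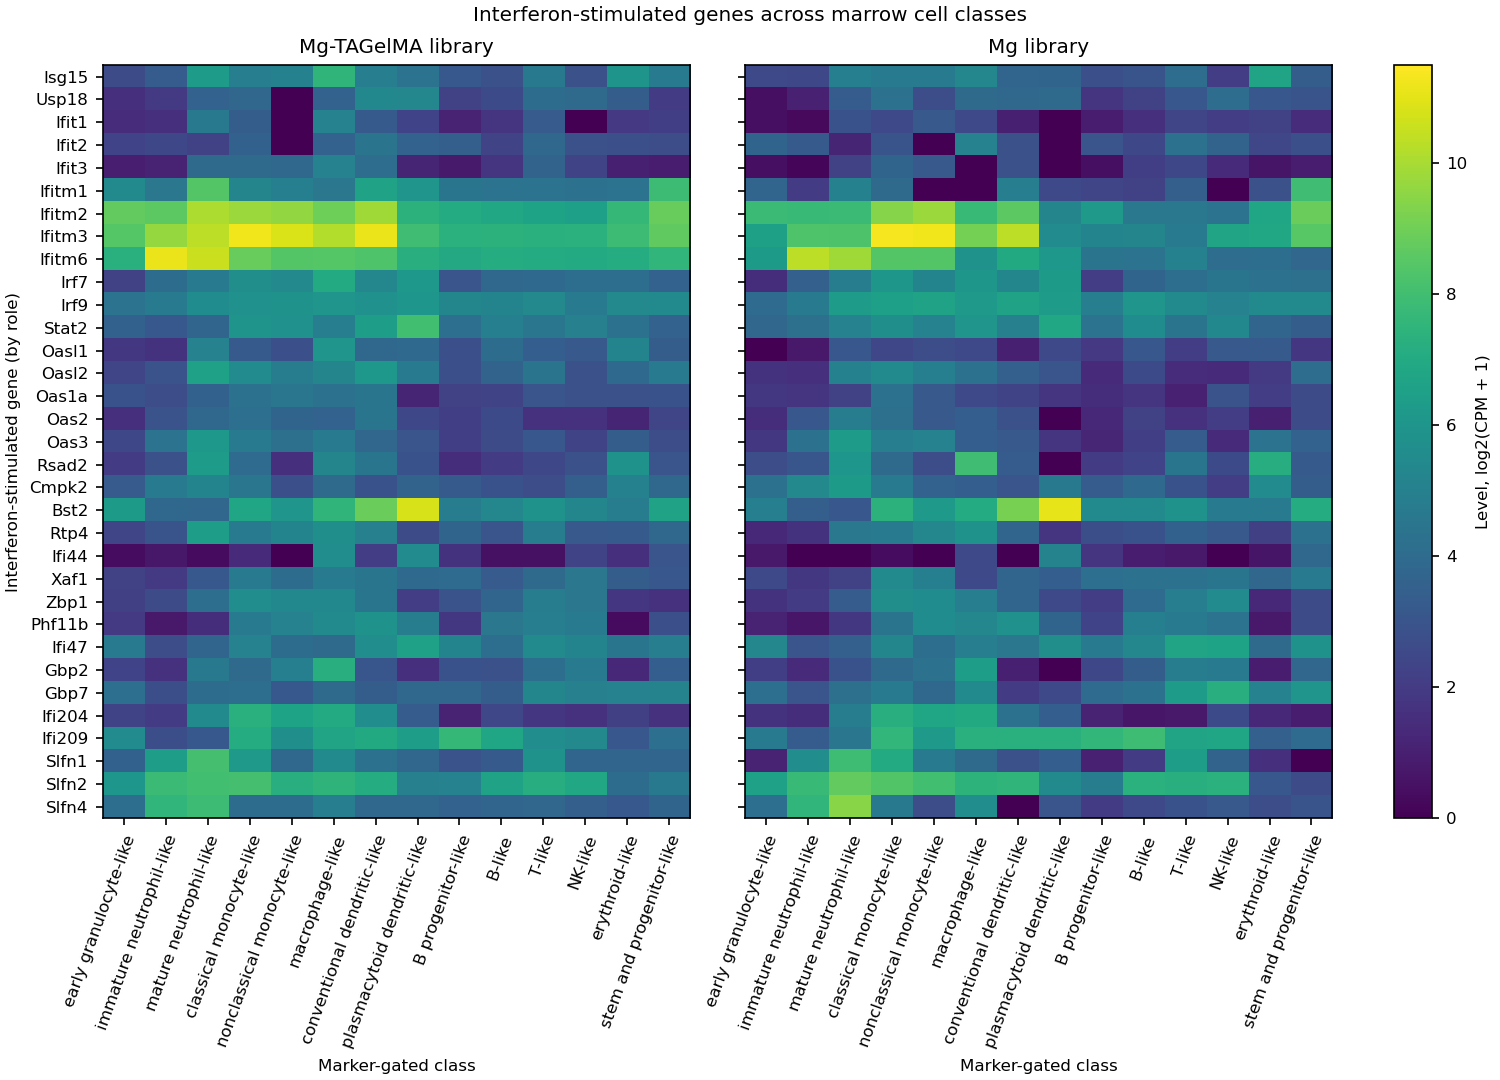
Level of each of the 33 members (rows, grouped by role) in 14 marker-gated classes (columns) of the Mg-TAGelMA library (left) and the Mg library (right), as log2(CPM + 1). Ifitm2, Ifitm3 and Ifitm6 fill the myeloid columns, and Bst2 peaks in plasmacytoid dendritic-like cells. Rsad2 is high in mature neutrophil-like and erythroid-like cells of both libraries. Isg15 is high in erythroid-like cells of both, and in mature neutrophil-like cells of Mg-TAGelMA (77.5 CPM, against 29.8 CPM in Mg). The top values of Isg15 in Mg-TAGelMA (182 CPM) and of Rsad2 in Mg (247 CPM) are in macrophage-like cells.

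Bst2, which encodes tetherin and is used in mice as a marker of plasmacytoid dendritic cells, had 1810 CPM in these cells in the Mg-TAGelMA library and 2170 CPM in the Mg library. The next class, conventional dendritic-like cells, had 461 CPM in Mg-TAGelMA and 570 CPM in Mg, and the intervals of the 2 classes did not overlap in either library. Stat2, a transcription factor of the interferon response, followed with 259 CPM in plasmacytoid dendritic-like cells of Mg-TAGelMA and 119 CPM in those of Mg. Irf7, the factor that drives interferon alpha production, had 70.1 CPM there in Mg-TAGelMA and 75.5 CPM in Mg. Plasmacytoid dendritic cells are known as the main producers of type I interferon, and in Mg-TAGelMA only Irf7 had a higher level elsewhere, in macrophage-like cells at 130 CPM. In Mg the Stat2 and Irf7 intervals overlapped those of macrophage-like cells.

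Ifitm3, a membrane protein that blocks entry of enveloped viruses, reached 2470 CPM in classical monocyte-like cells of Mg-TAGelMA and 2590 CPM in those of Mg. Ifi204, a DNA-binding PYHIN protein, had 156 CPM in Mg-TAGelMA and 146 CPM in Mg in the same class, and its relative Ifi209 was instead highest in the B lineage. Ifi209 had 200 CPM in B progenitor-like and 108 CPM in B-like cells of Mg-TAGelMA, against 194 and 244 CPM in the same classes of Mg. Ifitm1 had 233 CPM in stem and progenitor-like cells of Mg-TAGelMA, below only its mature neutrophil-like level, and 251 CPM in those of Mg, its highest level there.

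The interferon-inducible GTPases were spread over lymphoid and myeloid classes. Ifi47 had 43.7 CPM in T-like cells of Mg-TAGelMA and 103 CPM in those of Mg, and Gbp7 had 31.0 CPM in NK-like cells of Mg-TAGelMA and 146 CPM in those of Mg. Zbp1, a sensor of Z-form nucleic acid that can trigger cell death, stayed near 50 CPM in classical monocyte-like cells, at 49.3 CPM in Mg-TAGelMA and 50.1 CPM in Mg. Xaf1, an apoptosis-linked gene, had 25.8 CPM there in Mg-TAGelMA and 44.3 CPM in Mg. Ifi44 was nearly absent from most classes, with 2.15 CPM over all cells of Mg-TAGelMA and 1.29 CPM over those of Mg, and reached 46.5 CPM in plasmacytoid dendritic-like cells of Mg-TAGelMA and 34.1 CPM in those of Mg.

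Some high values in the small macrophage-like class came mostly from single cells. Isg15 had 182 CPM in the 59 macrophage-like cells of Mg-TAGelMA, but 43 of its 49 UMIs lay in 1 cell, and the level without that cell was 24.2 CPM. Rsad2 had 247 CPM in the 41 macrophage-like cells of Mg, with 45 of 51 UMIs in 1 cell and 30.9 CPM without it. Gbp2 had 38 of its 41 UMIs in 1 macrophage-like cell of Mg-TAGelMA. These classes are given no comparison between the libraries.

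Along the neutrophil lineage, some members were higher in mature than in immature cells, some already in immature than in early cells, and most passed the size rule at neither step. The classes used were early granulocyte-like cells, which carry primary granule genes such as Elane, immature neutrophil-like cells, which carry Ltf, Camp and Ngp, and mature neutrophil-like cells, which carry Cxcr2 and Retnlg. A difference counts as past the size rule where the whole 95% interval of the ratio exceeds 2-fold in 1 direction and the higher side has at least 50 CPM. In mature over immature cells, 8 of the 33 members were higher past the rule in Mg-TAGelMA (1.57% of all genes), 5 in Mg (1.16%), and 3 in both, against 0.784% of all genes in both. No member was lower past the rule, where 0.914% of all genes were in Mg-TAGelMA, 0.691% in Mg and 0.431% in both. Not passing does not mean that a member did not rise, since some missed only the CPM minimum. In Mg-TAGelMA the mature over immature ratio was 14.2 for Ifi204 (10.6 to 19.4) and 15.1 for Oasl1 (10.7 to 21.9). It was 12.6 for Ifit1 (8.68 to 18.9) and 12.8 for Ifit3 (7.94 to 21.8). In Mg the Ifi204 ratio was 15.8 (7.82 to 32.7). Neither library had a member interval wholly beyond 2-fold on the lower side at this step.

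The 3 members past the rule in both libraries at this late step were Rsad2, Oas3 and Slfn1. Rsad2, which encodes viperin, had 3.17, 6.23 and 82.0 CPM in early, immature and mature cells of Mg-TAGelMA, and 5.60, 7.47 and 64.8 CPM in those of Mg. Its level in mature cells was 13.2-fold that in immature cells in Mg-TAGelMA (10.7 to 16.3) and 8.67-fold in Mg (5.85 to 12.8). Oas3, a synthase of the RNase L messenger, was 3.45-fold higher at the mature stage in Mg-TAGelMA (3.03 to 3.94) and 4.26-fold higher in Mg (3.13 to 5.74). Slfn1, a Schlafen gene, was 3.29-fold higher in Mg-TAGelMA and 5.06-fold higher in Mg.

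Isg15, Oasl2, Rtp4, Ifitm1 and Ifitm2 passed the rule at this step in the Mg-TAGelMA library and not in the Mg library. In Mg the ratio was 6.34 for Isg15 (3.62 to 10.9) and 16.8 for Oasl2 (8.63 to 33.7). It was 10.8 for both Rtp4 (5.28 to 21.9) and Ifitm1 (5.93 to 19.5). These intervals lie beyond 2-fold, and only the CPM minimum was missed. Ifitm2 had a ratio of 1.06 in Mg (0.901 to 1.24). Slfn4 and Irf9 passed in the Mg library and not in Mg-TAGelMA, where their ratios were 1.24 and 1.85. Whether the step itself differs between the libraries cannot be tested with 1 library each. Isg15, the ubiquitin-like modifier, had 5.09, 9.16 and 77.5 CPM in early, immature and mature cells of Mg-TAGelMA, and 4.85, 4.70 and 29.8 CPM in those of Mg. Ifitm1 had 42.6, 22.8 and 342 CPM in Mg-TAGelMA, and 12.3, 3.01 and 32.4 CPM in Mg, so both libraries had their highest value of the 3 stages in mature cells. Slfn4 had 17.0, 189 and 235 CPM in Mg-TAGelMA, and 17.2, 187 and 695 CPM in Mg; the first 2 stages were nearly equal between the libraries and the third was not.

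The earlier step shared some members with the later one. In immature over early cells, 5 members were higher past the rule in Mg-TAGelMA (1.28% of all genes), 4 in Mg (0.709%), and 4 in both (0.613%), namely Ifitm3, Ifitm6, Slfn2 and Slfn4. The fifth in Mg-TAGelMA was Slfn1 (7.69, 6.33 to 9.40), which passed at both steps there, as Slfn4 did in Mg. Ifitm6 was 14.9-fold higher in immature cells in Mg-TAGelMA (14.2 to 15.6) and 17.1-fold higher in Mg (14.8 to 19.7). Slfn4 was 11.1-fold higher in Mg-TAGelMA and 10.9-fold higher in Mg. Slfn2, needed in mice for the quiescence of T cells and monocytes, was 3.57-fold higher in Mg-TAGelMA and 2.30-fold higher in Mg. Bst2 ran the other way, with 14.0 CPM in immature and 76.0 CPM in early cells of Mg-TAGelMA, past the rule there as 3.40% of all genes were, and 10.1 CPM in immature and 29.8 CPM in early cells of Mg. In Mg 0 members were lower past the rule, against 1.40% of all genes, and likewise 0 in both libraries, against 1.25%.

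**Figure D2:**
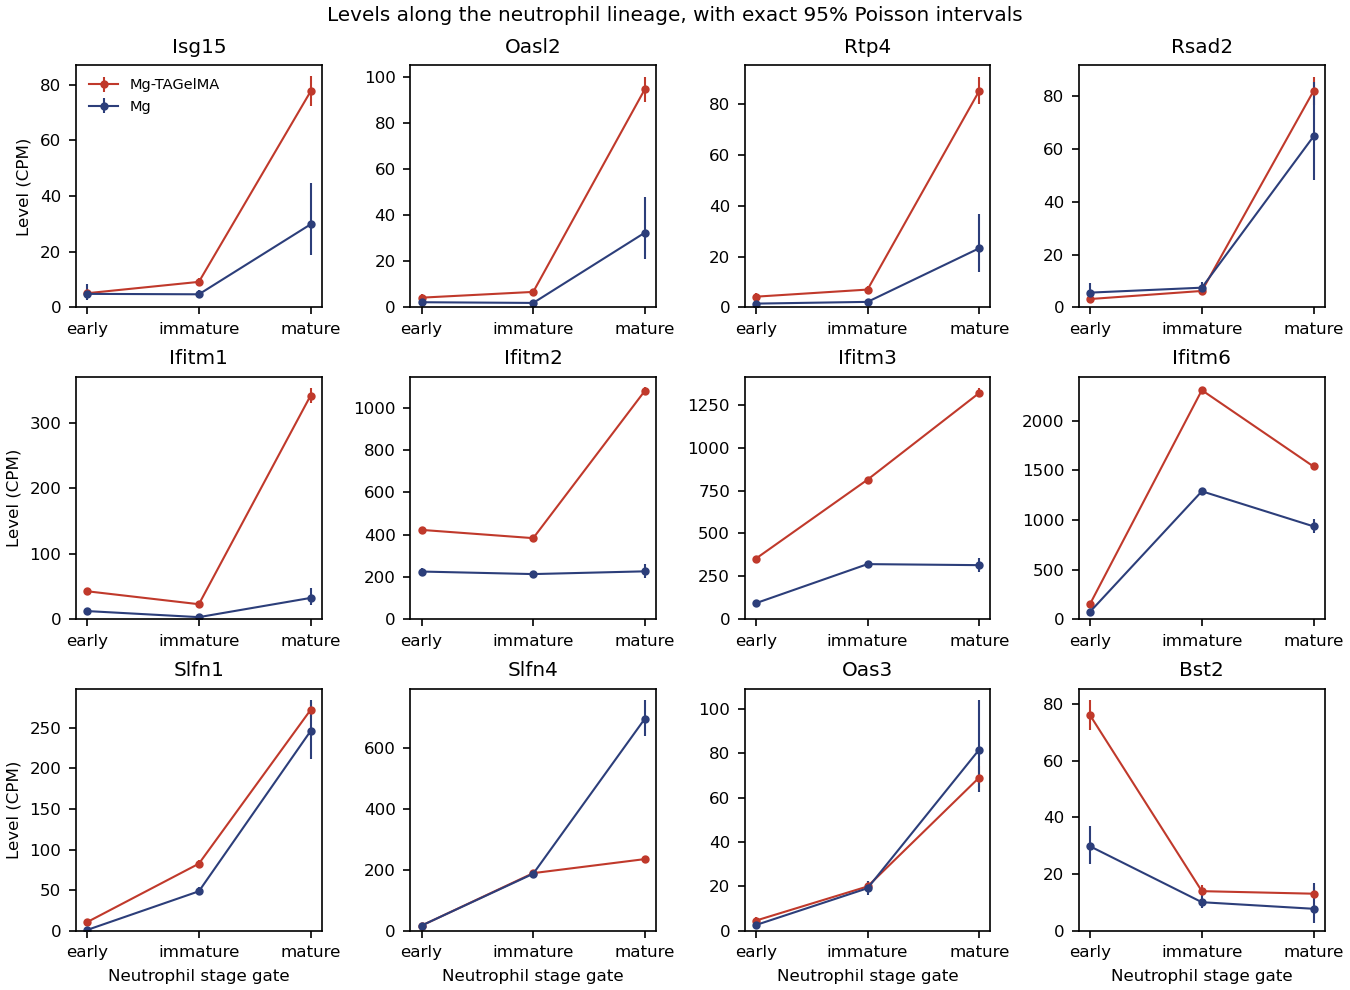
Level (CPM, linear axes) of 12 members in early granulocyte-like, immature and mature neutrophil-like cells of the Mg-TAGelMA (red) and Mg (blue) libraries, 1 library each, with exact 95% Poisson intervals. Rsad2, Oas3 and Slfn1 climb to the mature stage in both libraries, Ifitm6 peaks at the immature stage, and Slfn4 separates only at the mature stage (235 CPM in Mg-TAGelMA, 695 CPM in Mg).

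In mature neutrophil-like cells, Ifitm1, Ifitm2, Ifitm3 and Rtp4 were several-fold higher in the Mg-TAGelMA library than in the Mg library and Slfn4 was lower. Isg15, the Ifit genes and the OAS-like genes had ratios above 1 that rest on few UMIs in Mg. The class held 2050 cells with a median of 5179.5 UMIs in Mg-TAGelMA and 335 cells with a median of 1901 UMIs in Mg. Past the size rule, 4 members were higher (Ifitm1, Ifitm2, Ifitm3, Rtp4), as were 1.02% of all genes and 11.1% of genes with at least 50 CPM on the higher side. Slfn4 was lower past the rule, as were 0.784% of all genes and 8.56% of those with at least 50 CPM. Of the 33 members 29 reached 10 CPM in either library and 14 reached 50 CPM, and the median log2 ratio of the 29 was 0.60, beside -0.20 over all 6735 genes that reached 10 CPM.

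Ifitm2 had 1080 CPM in Mg-TAGelMA and 226 CPM in Mg, a ratio of 4.79 (4.12 to 5.59). Ifitm3 had 1320 CPM in Mg-TAGelMA and 315 CPM in Mg, a ratio of 4.20 (3.70 to 4.79). Ifitm1 had 342 CPM in Mg-TAGelMA and 32.4 CPM in Mg, a ratio of 10.6 (7.14 to 16.3) that rests on 25 UMIs in Mg. Ifitm6 was the exception in the family, with 1540 CPM in Mg-TAGelMA and 936 CPM in Mg, a ratio of 1.65 (1.53 to 1.78) short of the rule. The 4 Ifitm genes have at most 1.51 kb of annotated intron each.

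Rtp4, a chaperone of G protein-coupled receptors, had 85.3 CPM in Mg-TAGelMA and 23.3 CPM in Mg, a ratio of 3.66 (2.30 to 6.20) on 18 UMIs in Mg. It lost the call when Gm42418 and AY036118 were left out of the totals, with a ratio of 3.09 (1.94 to 5.23). It also carries 91.8 kb of annotated intron, and whether intronic reads were counted in either library is not stated, so that difference in counting cannot be told apart from the nails. Ifitm1, Ifitm2 and Ifitm3 remained past the rule in every alternative run for mature neutrophil-like cells. Leiden clusters were not among these, since the clusters named mature neutrophil held 0 and 1 cells of Mg.

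The Oas family was divided. Oasl2 had 94.6 CPM in Mg-TAGelMA and 32.4 CPM in Mg, a ratio of 2.92 (1.97 to 4.53), and Oasl1 had 33.2 CPM in Mg-TAGelMA and 7.78 CPM in Mg on 6 UMIs. Both encode OAS-like proteins. Oas3, in contrast, had 69.1 CPM in Mg-TAGelMA and 81.7 CPM in Mg, a ratio of 0.846 (0.654 to 1.11), and Oas2 had 13.8 CPM in Mg-TAGelMA and 28.5 CPM in Mg. Oas1a had 10.9 CPM in Mg-TAGelMA and 3.89 CPM in Mg on 3 UMIs.

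Isg15 had 77.5 CPM in Mg-TAGelMA and 29.8 CPM in Mg, a ratio of 2.60 (1.72 to 4.12) whose interval reaches below 2-fold. Ifit1 had 23.9 CPM in Mg-TAGelMA and 6.48 CPM in Mg on 5 UMIs, and Ifit3 had 14.8 CPM in Mg-TAGelMA and 3.89 CPM in Mg on 3 UMIs. Neither Ifit1 nor Ifit3 reached 50 CPM. Rsad2 had 82.0 CPM in Mg-TAGelMA and 64.8 CPM in Mg (ratio 1.27, 0.952 to 1.72), while its genomic neighbour Cmpk2, a mitochondrial nucleotide kinase, had 35.1 CPM in Mg-TAGelMA and 76.5 CPM in Mg (ratio 0.460, 0.349 to 0.615). Usp18, which removes ISG15 from proteins and restrains the receptor, had 11.1 CPM in Mg-TAGelMA and 9.07 CPM in Mg.

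The transcription factors of the pathway had ratios below 1, none past the rule. Stat2 had 12.5 CPM in Mg-TAGelMA and 33.7 CPM in Mg, a ratio of 0.371 (0.243 to 0.588) below the CPM minimum. Irf9, the DNA-binding part of ISGF3, had 47.0 CPM in Mg-TAGelMA and 77.8 CPM in Mg (0.605, 0.462 to 0.804), and Irf7 had 25.7 CPM in Mg-TAGelMA and 27.2 CPM in Mg. The Schlafen genes also parted. Slfn4 had 235 CPM in Mg-TAGelMA and 695 CPM in Mg, which is 2.95-fold lower in Mg-TAGelMA (2.69 to 3.24), while Slfn1 had 272 CPM in Mg-TAGelMA and 246 CPM in Mg (ratio 1.11, 0.954 to 1.29). Slfn2 lay between them, with 257 CPM in Mg-TAGelMA and 423 CPM in Mg. Of the other members, Bst2, Gbp2, Gbp7, Ifi204, Ifi209, Ifi47 and Zbp1 had under 50 CPM in both libraries, and Ifi44, Ifit2, Phf11b and Xaf1 under 10 CPM.

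The mature neutrophil-like cells of the 2 libraries also differed in genes of the preceding stage. Camp, an antimicrobial peptide of secondary granules, had 3840 CPM in Mg-TAGelMA and 6760 CPM in Mg, Ngp had 5750 CPM in Mg-TAGelMA and 8270 CPM in Mg, and S100a8 had 108000 CPM in Mg-TAGelMA and 41200 CPM in Mg. Immature neutrophil-like cells had far more Camp, at 40800 CPM in Mg-TAGelMA and 47300 CPM in Mg. Joint clustering placed most Mg neutrophils in clusters that took the name of the immature stage. The clusters named mature neutrophil held 1045 and 953 cells of Mg-TAGelMA, and 0 and 1 cells of Mg. The 335 gated Mg cells therefore lay almost wholly outside them. The part of these differences in the interferon-stimulated gene ratios was not tested.

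Classical monocyte-like cells did not show the same ratios. With 676 cells in Mg-TAGelMA and 388 in Mg, 0 members were past the size rule on either side, against 1.76% of all genes on the higher and 0.180% on the lower side (14.5% and 1.48% of genes with at least 50 CPM). The median log2 ratio of the 30 measured members was -0.06 beside 0.07 over all genes. Ifitm3 had a ratio of 0.954 (0.932 to 0.978) and Ifitm2, with 869 CPM in Mg-TAGelMA and 675 CPM in Mg, a ratio of 1.29 (1.23 to 1.35). Isg15 had 29.1 CPM in Mg-TAGelMA and 25.6 CPM in Mg (1.14, 0.891 to 1.46). Rtp4 had 25.0 CPM in Mg-TAGelMA and 26.5 CPM in Mg (0.940, 0.736 to 1.21), and Oasl2 a ratio of 1.05 (0.867 to 1.27). The lowest ratio among the measured members was that of Slfn1, with 71.1 CPM in Mg-TAGelMA and 128 CPM in Mg (0.556, 0.493 to 0.628). The difference between monocyte-like and neutrophil-like cells in these ratios was not tested.

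In the 2 earlier neutrophil classes fewer members were past the rule. Ifitm3 was past the rule in early granulocyte-like cells, at 353 CPM in Mg-TAGelMA and 92.9 CPM in Mg (3.80, 3.34 to 4.34), and in immature neutrophil-like cells, at 814 CPM in Mg-TAGelMA and 321 CPM in Mg (2.54, 2.43 to 2.64). Bst2 was also past it in early granulocyte-like cells, at 76.0 CPM in Mg-TAGelMA and 29.8 CPM in Mg (2.55, 2.02 to 3.25), and lost the call under 5 alternatives, among them TMM scaling at 2.33 (1.85 to 2.98). After thinning to 1000 UMIs per cell neither passed in early granulocyte-like cells, and the Ifitm3 ratio was 3.23 (1.93 to 5.74). Ifitm6 had a ratio of 2.06 in early and 1.79 (1.76 to 1.83) in immature cells, short of the rule in both and not below its mature ratio. The shares of all genes higher past the rule were 0.982% in early and 0.793% in immature cells (9.06% and 8.76% of genes with at least 50 CPM). In both classes 0 members were lower past the rule, against 0.350% and 0.396% of all genes (3.23% and 4.38%).

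Over all cells of a library, 5 members were higher past the rule and 0 lower, against 2.31% and 0.932% of all genes (18.8% and 7.57% of genes with at least 50 CPM). They were Ifitm1 (102 CPM in Mg-TAGelMA, 16.0 CPM in Mg), Ifitm2 (515 CPM, 157 CPM), Ifitm3 (903 CPM, 311 CPM), Ifitm6 (878 CPM, 250 CPM) and Slfn1 (75.8 CPM, 25.0 CPM). The whole-library values also carry the makeup of the libraries, since mature neutrophil-like cells were 28.4% of kept cells in Mg-TAGelMA and 4.12% in Mg. Ifi209, high in the B lineage, had 59.7 CPM over all cells of Mg-TAGelMA and 120 CPM over those of Mg, and B-like cells were 13.2% of Mg-TAGelMA cells and 23.1% of Mg cells.

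In lymphoid and erythroid classes the calls came mainly from Ifitm genes, beside neutrophil transcripts that moved the same way. Past the rule on the higher side were Ifitm3 and Ifitm6 in B progenitor-like cells (2.33% of all genes), Ifitm2, Ifitm3 and Ifitm6 in B-like cells (2.66%) and in T-like cells (2.41%), and Ifitm6 in erythroid-like cells (1.67%). Of genes with at least 50 CPM, 18.3%, 21.3%, 20.3% and 15.1% were higher in these 4 classes. After thinning to 1000 UMIs per cell, Ifitm2 (ratio 3.49) and Ifitm6 (ratio 4.41) no longer passed in T-like cells. In B-like cells Ifitm3 had 169 CPM in Mg-TAGelMA and 36.7 CPM in Mg (4.61, 3.99 to 5.35), and the Ifitm6 ratio was 6.95 (5.75 to 8.44). Ngp, a granule gene of immature neutrophils, had 1160 CPM in B-like cells of Mg-TAGelMA and 327 CPM in those of Mg. In T-like cells Ifitm6 had 132 CPM in Mg-TAGelMA and 31.9 CPM in Mg, and Ngp had 999 CPM in Mg-TAGelMA and 560 CPM in Mg.

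Ifitm6 counts kept an almost fixed proportion to Ngp counts in classes that are not known for either gene. In Mg-TAGelMA there were between 11.3 and 13.3 Ifitm6 UMIs per 100 Ngp UMIs in B progenitor-like, B-like, T-like, NK-like, erythroid-like and stem and progenitor-like cells, and in Mg between 4.37 and 6.25. Plasmacytoid dendritic-like cells had 13.6 in Mg-TAGelMA and 12.2 in Mg, there on 28 Ifitm6 UMIs. In classical monocyte-like cells the proportion was 33.7 in Mg-TAGelMA and 134 in Mg, and in mature neutrophil-like cells 26.8 in Mg-TAGelMA and 11.3 in Mg. Ifitm3 had no such fixed proportion in Mg, where it lay between 4.75 per 100 Ngp UMIs in T-like and 124 in stem and progenitor-like cells. In the same classes of Mg-TAGelMA its range was narrower, between 14.6 in B-like and 24.2 in stem and progenitor-like cells. The part of neutrophil RNA outside neutrophils in the lymphoid and erythroid Ifitm ratios was not tested.

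**Figure D3:**
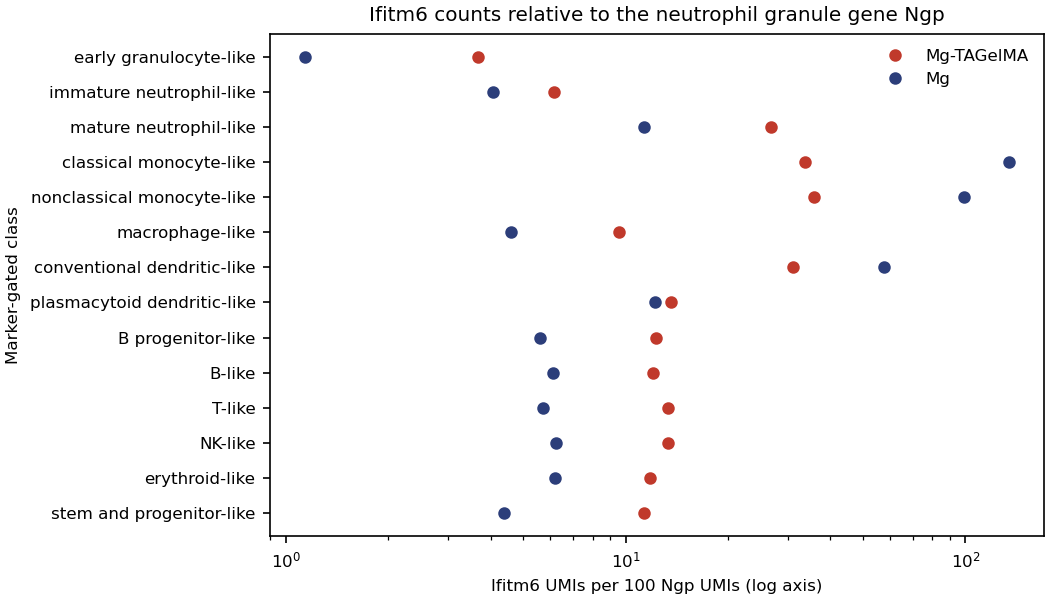
Ifitm6 UMIs per 100 Ngp UMIs (log axis) in each marker-gated class of the Mg-TAGelMA (red) and Mg (blue) libraries, 1 summed value per class and library. Lymphoid, erythroid and progenitor classes lie close together within each library, at 11.3 to 13.3 in Mg-TAGelMA and 4.37 to 6.25 in Mg, while monocyte-like cells lie far above.

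Only a pair of members were lower past the rule outside neutrophils. Ifi209 had 108 CPM in B-like cells of Mg-TAGelMA and 244 CPM in those of Mg, 2.26-fold lower in Mg-TAGelMA (2.05 to 2.51), as were 0.554% of all genes and 4.44% of those with at least 50 CPM. In B progenitor-like cells it did not differ by more than its interval, at 200 CPM in Mg-TAGelMA and 194 CPM in Mg (1.03, 0.935 to 1.14). Its B-like ratio was 0.613 (0.553 to 0.678), no longer past the rule, when totals were limited to genes with at most 8 kb of intron. In B progenitor-like and T-like cells 0 members were lower past the rule, against 0.133% and 0.214% of all genes (1.05% and 1.80% of those with at least 50 CPM).

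The other was Rsad2 in erythroid-like cells, where Rsad2 and Isg15 had a high level of their own. Rsad2 had 56.8 CPM in Mg-TAGelMA and 144 CPM in Mg, 2.54-fold lower in Mg-TAGelMA (2.21 to 2.93), as were 0.177% of all genes and 1.60% of those with at least 50 CPM. The call was lost after thinning to 1000 UMIs per cell, at a ratio of 0.521 (0.354 to 0.742). Isg15 had 61.8 CPM in Mg-TAGelMA and 105 CPM in Mg (ratio 0.591, 0.513 to 0.678). A UMI of Isg15 was found in 41.2% of erythroid-like cells of Mg-TAGelMA and 42.4% of those of Mg, against 2.72% and 2.39% of B-like cells, with median depths of 27202 and 5083.5 UMIs in erythroid-like and 4625 and 3250 UMIs in B-like cells. After thinning every cell to 1000 UMIs, 13 of 123 erythroid-like cells of Mg-TAGelMA and 144 of 907 of Mg had an Isg15 UMI, against 10 of 954 and 13 of 1831 B-like cells.

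Within erythroid-like cells, the CPM of Isg15 and Rsad2 rose with the globin share of a cell's UMIs in both libraries. That share is a measure of late erythroid maturation. In cells with under 5%, 5% to 20% and over 20% globin, Rsad2 had 9.91, 55.4 and 621 CPM in Mg-TAGelMA, and 11.7, 82.5 and 463 CPM in Mg. Isg15 had 20.2, 99.3 and 441 CPM in Mg-TAGelMA, and 17.9, 79.3 and 298 CPM in Mg. The intervals of the 3 bins did not overlap for either gene in either library. Median depth fell over these bins, at 51549, 16169.5 and 4141 UMIs in Mg-TAGelMA and 40518, 17329 and 4045 UMIs in Mg. In Mg-TAGelMA, Isg15 had 59, 77 and 108 UMIs and Rsad2 29, 43 and 152 on 57, 38 and 36 cells. In Mg, Isg15 had 105, 247 and 909 UMIs and Rsad2 69, 257 and 1412 on 147, 186 and 603 cells. The part of falling depth in the CPM values was not tested. Of the 7 other members split in this way, Ifit1 also had bins that did not overlap in Mg, at 0.510, 3.53 and 10.5 CPM, and 2.39, 1.29 and 12.2 CPM in Mg-TAGelMA, there on 3 UMIs in the highest bin. Ifitm3 had 205, 298 and 404 CPM in Mg-TAGelMA, and 113, 138 and 111 CPM in Mg. Ifit3 had at most 1 UMI in the highest bin of either library, Oasl2 had 4.08 CPM there in Mg-TAGelMA and 7.87 CPM in Mg, and Cmpk2 had 53.1 CPM there in Mg-TAGelMA and 54.7 CPM in Mg.

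The libraries held these bins in different numbers, with 57, 38 and 36 cells in Mg-TAGelMA and 147, 186 and 603 cells in Mg. Within a bin, the Rsad2 ratio was 0.844 (0.527 to 1.32) under 5% globin, 0.672 (0.475 to 0.931) at 5% to 20%, and 1.34 (1.13 to 1.59) over 20%, so the direction of the whole-class ratio turned in the bin that held most of its UMIs. Isg15, at 1.13 (0.806 to 1.57), 1.25 (0.957 to 1.62) and 1.48 (1.20 to 1.81), was above 1 in each bin although its whole-class ratio was 0.591. No ratio in a bin was past the size rule.

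**Figure D4:**
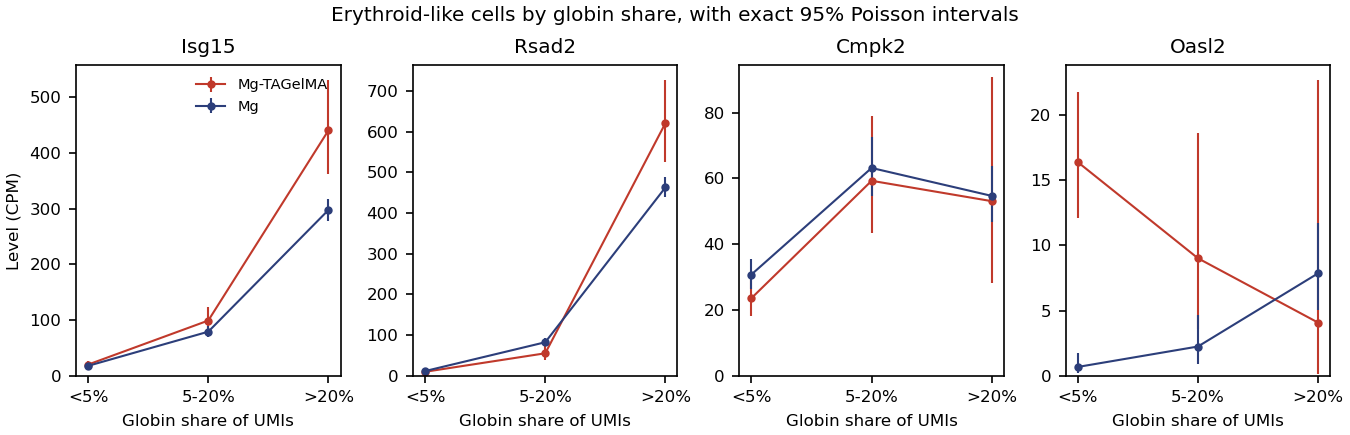
Level (CPM, linear axes) of 4 members in erythroid-like cells split by the globin share of their UMIs, in the Mg-TAGelMA (red) and Mg (blue) libraries, with exact 95% Poisson intervals. Isg15 and Rsad2 climb with globin in both libraries, to 441 and 621 CPM in Mg-TAGelMA and 298 and 463 CPM in Mg, while Cmpk2 levels off and Oasl2 stays low. Median depth per cell fell across the bins in both libraries.

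To see how often several members were found in the same cell, 14 of them (the ISG15, Ifit and Oas members with Rsad2, Cmpk2, Rtp4 and Ifi44, a set chosen after values were seen) were counted per cell, each cell thinned to 1000 UMIs. In mature neutrophil-like cells, 93 of 2037 cells of Mg-TAGelMA had at least 3 of the 14 (4.57%, 3.70 to 5.56), against 5 of 281 cells of Mg (1.78%, 0.580 to 4.10), and the intervals overlapped. In B-like cells the shares were 0.210% in Mg-TAGelMA and 0.109% in Mg. Without thinning, the shares in mature neutrophil-like cells were 23.5% in Mg-TAGelMA and 6.27% in Mg. Thinning left out 13 shallower mature cells of Mg-TAGelMA and 54 of Mg.

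Detection of these members was then compared between cells with and without Isg15 or Rsad2. Among thinned mature cells of Mg-TAGelMA with an Isg15 UMI, 64.4% (55.1 to 73.0) had another of the 14, against 27.0% (25.1 to 29.1) of those without, and with Rsad2 the shares were 71.3% and 26.9%. In Mg, 6 of 12 mature cells with an Isg15 UMI (interval 21.1% to 78.9%) and 21.6% (16.8 to 27.0) of those without had another; for Rsad2 the shares in Mg were 27.8% (9.69 to 53.5) and 19.8% (15.1 to 25.1). Classical monocyte-like cells had the same order. With Isg15, 10 of 18 cells of Mg-TAGelMA (30.8% to 78.5%) had another, against 17.2% without. In Mg it was 7 of 11 cells (30.8% to 89.1%) against 15.5%. For Isg15, intervals overlapped in immature neutrophil-like cells of Mg-TAGelMA, with 3 of 15 (4.33% to 48.1%) against 10.9% (9.27 to 12.8). They also overlapped in B-like cells, with 1 of 10 against 6.89% in Mg-TAGelMA and 3 of 13 against 6.44% in Mg. In erythroid-like cells of Mg the shares were 61.1% with and 27.7% without Isg15, and in those of Mg-TAGelMA 6 of 13 cells with and 22 of 110 without.

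The rest of the interferon pathway was described from 60 other genes, grouped as ligands, receptors, signal transducers, sensors, inhibitors and further induced genes. Ligand RNA was scarce. Ifnb1 had 9 UMIs over all cells of Mg-TAGelMA and 0 in Mg, Ifng had 196 UMIs in Mg-TAGelMA and 81 in Mg, and Ifna2, Ifna4, Ifnl2 and Ifnl3 had 0 in both libraries. In mature neutrophil-like cells 40 of the 60 reached 10 CPM, 2 were higher past the rule and 1 was lower, against 1.02% and 0.784% of all genes, or 11.1% and 8.56% of those with at least 50 CPM. Ifnar2, a chain of the type I receptor, had 255 CPM in Mg-TAGelMA and 68.7 CPM in Mg (3.71, 2.83 to 4.97), and Cd274, the checkpoint ligand PD-L1, had 76.4 CPM in Mg-TAGelMA and 11.7 CPM in Mg (6.55, 3.43 to 14.4). Ifnlr1, a chain of the type III receptor, was lower, with 12.7 CPM in Mg-TAGelMA and 66.1 CPM in Mg.

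Irf1, a factor induced by interferon gamma and other signals, was higher past the rule in early granulocyte-like, classical monocyte-like, B progenitor-like, B-like, T-like and erythroid-like cells, with 154 CPM in Mg-TAGelMA and 54.6 CPM in Mg in classical monocyte-like cells (2.81, 2.41 to 3.30). Those cells had 1 of 47 measured pathway genes higher and 0 lower, against 1.76% and 0.180% of all genes. B-like cells had 7 of 42 higher and 3 lower, and T-like cells 6 of 45 higher and 2 lower. Of all genes, 2.66% were higher and 0.554% lower in B-like cells, and 2.41% higher and 0.214% lower in T-like cells. Of genes with at least 50 CPM, 21.3% were higher and 4.44% lower in B-like cells, and 20.3% higher and 1.80% lower in T-like cells. Measured pathway genes needed only 10 CPM, so their counts have a different base from either share. Socs3, a feedback inhibitor of cytokine receptors, had 52.0 CPM in B-like cells of Mg-TAGelMA and 3.18 CPM in those of Mg. In these lymphoid cells Cd274 was again higher, with 137 CPM in B-like cells of Mg-TAGelMA and 21.5 CPM in those of Mg. Erythroid-like cells had 4 of 33 higher and 1 lower. The shares there were 1.67% and 0.177% of all genes, and 15.1% and 1.60% of those with at least 50 CPM. The lower gene was Isg20, an interferon-induced exonuclease, with 144 CPM in Mg-TAGelMA and 317 CPM in Mg. Immature neutrophil-like cells had 1 of 32 higher (Ifnar2), early granulocyte-like cells 1 of 38 (Irf1) and B progenitor-like cells 2 of 38 (Irf1 and Trim24), each with 0 lower, and the shares of all genes in these classes are given above.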

How the data were processed

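The authors deposited UMI counts without normalization, 1 matrix per library. Cell Ranger 7.0.1 (Mg-TAGelMA) and 5.0.0 (Mg) made them, per the file headers. STAR and mm10 are named in the submitters' processing notes. The deposited gene tables pair identifiers with symbols and carry no unit. Counting of intronic reads and the annotation release are not given in the sources used here.

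Cells with at least 200 genes and at most 15% mitochondrial UMIs were kept, and doublets called by scrublet were removed, 296 in Mg-TAGelMA (3.93%) and 193 in Mg (2.32%). Each cell was gated to the marker list, of 20, with the highest mean z-score of log counts per 10000 (capped at 5). At least 3 detected markers and a mean above 0.5 were required, and 621 cells of Mg-TAGelMA and 1644 of Mg stayed ungated. In mature neutrophil-like cells, 6 cells in Mg-TAGelMA and 17 in Mg lay within 0.1 of that cut. Counts were summed per class and library and scaled to CPM. A class was compared where both libraries had at least 100 of its cells. Ratios divide Mg-TAGelMA by Mg, and their 95% intervals are exact conditional binomial ones. Levels have Poisson intervals and shares Clopper-Pearson intervals. A count of 0 was set to 3 for ratios. With 1 library per group no test was made. The size rule asks for an interval entirely outside 2-fold and for 50 CPM or more on the higher side. "Measured" means at least 10 CPM in either library, so a gene high in a single library enters through that library.

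Values were given for members past the rule and for the most counted member of each role group, with others added after their values were seen. The members and lists were chosen with earlier results of these data known. Positions and lengths of introns are those of GENCODE vM21 (GRCm38), found for 32235 of 32285 genes (99.8%). Promoters came from RefSeq (GRCm38.p6). Alternatives covered scaling (edgeR 4.0.16, DESeq2 1.42.0), totals, filters, doublets, gating, Leiden clusters (2000 variable genes, 30 components, 15 neighbours, resolution 1), thresholds and thinning. The procedure was tested on simulated data. Software was Python 3.11.15, scanpy 1.11.5, leidenalg 0.10.2, scipy 1.17.1 and R 4.3.3.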

Additional observations from a re-analysis of the deposited data

How the results depend on the processing

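No paired analysis was possible because each group has 1 library and no test was made. The 24 member ratios past the size rule were recomputed under the alternatives, 304 ratios in all. Of these 287 kept the call, 16 lost it and 1 turned, that of Rsad2 in erythroid-like cells with over 20% globin at 1.34; in cells with under 5% and 5% to 20% globin it was 0.844 and 0.672. The globin split and the limit of members and total to at most 8 kb of intron were chosen after seeing the data.

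Counts of members past the rule moved as follows. With no CPM minimum, the higher counts were 12 in all cells, 4 in early granulocyte-like, 3 in immature neutrophil-like, 5 in B progenitor-like, 5 in B-like and 5 in erythroid-like cells, and the lower count in T-like cells was 1. With a bound of 1.5-fold, the higher counts were 4 in early granulocyte-like, 4 in immature neutrophil-like, 7 in mature neutrophil-like and 3 in erythroid-like cells, and the lower counts were 1 in all cells, 2 in mature neutrophil-like, 1 in classical monocyte-like and 3 in T-like cells. Under TMM scaling, median-ratio factors and totals without Gm42418 and AY036118, 1 member was lower in all cells and 1 higher in early granulocyte-like cells. Under the last 2 of these 1 was lower in T-like cells, and under the first 2 the lower count in erythroid-like cells was 2. Keeping doublets left 1 higher in early granulocyte-like cells.

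Thinning to 1000 UMIs gave 0 higher in early granulocyte-like, 2 in immature neutrophil-like, 1 in T-like and 2 in erythroid-like cells, and 0 lower in B-like and erythroid-like cells. Limiting the totals to short genes (at most 8 kb of intron), and limiting the members likewise, gave 0 lower in B-like and erythroid-like cells and 2 higher in erythroid-like cells; the member limit, which leaves out Slfn4, gave 0 lower in mature neutrophil-like cells. At least 500 genes per cell gave 0 lower in erythroid-like cells. Leiden clusters gave 1 higher in classical monocyte-like, 2 higher in erythroid-like and 1 lower in B progenitor-like cells. They gave no value in early granulocyte-like and mature neutrophil-like cells, which had under 100 cells in a library. For the mature class, the clusters held 0 and 1 cells of Mg. Median log2 ratios moved to -0.05 in immature neutrophil-like cells under Leiden clusters, and in classical monocyte-like cells to 0.24 with totals of at most 8 kb of intron, 0.23 after thinning and 0.10 with members limited too. The cause was not tested where the setting itself does not show it.

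TMM shifted the all-gene median log2 ratio by 0.40 in mature neutrophil-like and by -0.49 in erythroid-like cells, median-ratio factors by 0.38 and -0.51, and totals of at most 8 kb of intron by 0.52 in B-like cells. In mature neutrophil-like cells Bst2, Gbp2, Ifi47, Ifit1, Ifit3, Oas1a, Oasl1, Usp18 and Zbp1 had under 10 UMIs in Mg, which limits their ratios. All of these enter the median log2 ratio of the measured members. Ifi44, Ifit2, Phf11b and Xaf1, which were not measured in this class, also had under 10.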

Other observations

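Cxcl10, a chemokine induced by interferon, had 1950 UMIs over all cells of Mg-TAGelMA and 109 in Mg, or 26.0 CPM in Mg-TAGelMA and 1.98 CPM in Mg, a ratio of 13.2 (10.9 to 16.1) below the CPM minimum. The summed level of the 14 antiviral members was 316 CPM in conventional dendritic-like cells of Mg-TAGelMA (60 cells) and 98.4 CPM in those of Mg (72 cells), and 198 CPM in plasmacytoid dendritic-like cells of Mg-TAGelMA (115 cells) and 105 CPM in those of Mg (45 cells). Both classes were too small for the comparison between the libraries, and in the first of them 74 of the 295 UMIs of Mg-TAGelMA lay in 1 cell.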
